A study of Mus musculus with 2 samples.

Results

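The glutathione peroxidases Gpx1, Gpx2, Gpx3 and Gpx4 and the selenium-binding protein gene Selenbp1 were compared between grafted small intestinal epithelium and normal colonic epithelium of the mouse. These 5 genes were taken by name from 17305 genes with a value, each from its probe set with the highest mean over both arrays. Selenbp1 was chosen by its low value on the graft array, so its difference is given as a description. The graft was epithelium of an EGFP-transgenic C57BL6 mouse, grown for 7 days as organoids, instilled into the colonic lumen of a C57BL6 recipient and collected 4 weeks later. The control was colonic epithelium of a C57BL6 mouse that had no graft. Both epithelia were laser-microdissected, and each group is 1 array, so no value below has a replicate check and no p-value can be given. Gut region, organoid culture, transplantation, the EGFP transgene, donor animal and individual all differ between the arrays and cannot be told apart. Ungrafted small intestine was not analysed here. Of the 11 epithelial genes looked at, among them Epcam, Krt8 and Vil1, 0 differed by 2-fold, with a mean log2 level of 9.76 (graft) and 9.54 (colon), so both labels fit an epithelial sample by these markers. Of 10 genes of small intestinal enterocytes, 8 were past 2-fold towards the graft, and of 6 colonic genes with a value 6 were past 2-fold towards the colon.

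Glutathione peroxidases reduce hydrogen peroxide and organic hydroperoxides and oxidise glutathione in doing so. Glutathione reductase returns the oxidised form with NADPH as the electron donor. Gpx1 is the widespread cytosolic enzyme, Gpx2 the gastrointestinal one that is most abundant towards the crypt base, Gpx3 the secreted plasma enzyme, and Gpx4 the one that reduces lipid hydroperoxides within membranes and guards against ferroptosis. All of these carry selenocysteine at the active site. Selenbp1 binds selenium without being a selenocysteine protein. It is a marker of differentiated colonocytes and acts as a methanethiol oxidase, which turns a bacterial sulfur gas into hydrogen sulfide, hydrogen peroxide and formaldehyde.

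Selenbp1 has a close mouse relative, Selenbp2, and both were lower in the graft. Their start-site windows run from 250 bases before to 50 bases after the annotated start and are shown for how alike they are. The rest of the loci and the transcripts were not compared. The windows are from RefSeq on build GRCm38.p6, both on the plus strand, at chr3:94932833-94933132 for Selenbp1 and chr3:94693323-94693622 for Selenbp2. Capitals mark bases without an identical partner in the alignment, the unaligned ends included.
Selenbp1: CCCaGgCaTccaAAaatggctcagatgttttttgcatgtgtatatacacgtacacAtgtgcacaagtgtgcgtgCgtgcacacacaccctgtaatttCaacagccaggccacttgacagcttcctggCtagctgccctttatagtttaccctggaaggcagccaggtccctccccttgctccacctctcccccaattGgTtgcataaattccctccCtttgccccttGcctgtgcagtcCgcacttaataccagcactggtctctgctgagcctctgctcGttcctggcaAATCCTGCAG
Selenbp2: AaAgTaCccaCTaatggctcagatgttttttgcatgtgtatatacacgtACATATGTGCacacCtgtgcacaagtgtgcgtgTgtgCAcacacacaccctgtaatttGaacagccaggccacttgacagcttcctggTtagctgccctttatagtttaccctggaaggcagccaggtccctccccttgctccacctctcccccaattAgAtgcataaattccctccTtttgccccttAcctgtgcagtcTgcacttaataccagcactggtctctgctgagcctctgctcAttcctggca
Of 288 paired positions 272 were identical, 94.4%, with 12 positions opposite gaps. Both windows hold 1 match to TTTATNG, a core recognised by the intestinal Cdx factors, in a stretch that is identical in the pair. This match lies 113 bases before the start of Selenbp1 and 103 bases before that of Selenbp2.

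The window of Gpx2, the other member past 2-fold, is at chr12:76795505-76795804 on the minus strand of the same build. Its capitals mark a match to the Cdx core TTTATNG, 129 bases before the start. They also mark a match to CTTTGTT, the second form of the Tcf/Lef core of Wnt signalling, 28 bases before it.
Gpx2: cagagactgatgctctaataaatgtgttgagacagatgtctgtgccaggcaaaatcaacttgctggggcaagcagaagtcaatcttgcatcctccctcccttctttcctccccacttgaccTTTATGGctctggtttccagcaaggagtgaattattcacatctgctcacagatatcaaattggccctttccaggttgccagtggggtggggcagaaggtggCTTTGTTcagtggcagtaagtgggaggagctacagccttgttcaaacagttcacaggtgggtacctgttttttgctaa
On either strand, TTTATNG was found in 10.9% of the 32851 windows of this length in the table and CTTTGTT in 5.85%. The other letters searched were the antioxidant response element core TGACNNNGC, present in 12.4% of windows, and the Hnf4 core CAAAGTCCA, in 0.47%. The first Tcf/Lef form, CTTTGAT, was present in 3.73% and not found in the Gpx2 window. TGACNNNGC overlaps the AP-1 motif where its open letters complete one, and the Hnf4 core shares the letters CAAAG with the reversed Tcf/Lef cores. None of the 5 motifs was found in the windows of Gpx1, Gpx3 or Gpx4, the last with 4 annotated windows. The motifs were chosen with these windows in view, so neither the matches nor their absence, set beside these shares, is a result about the members. A match is a match of letters, and its absence says only that the letters are not in the window.

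Gpx2 was 2.50-fold higher in the graft. Its log2 level was 11.88 on the graft array and 10.56 on the colon array, a difference of 1.32. Both values lay above the median of all gene values, 5.48, and the graft was the higher. In bulk RNA, more cells that make a transcript and more transcript per cell cannot be told apart. This holds here for every difference.

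Gpx1 was also higher in the graft, by less than 2-fold. Its log2 level was 10.65 on the graft array and 9.85 on the colon array, a difference of 0.80 or 1.74-fold. Of the 4 selenocysteine members, Gpx2 and Gpx1 were thus higher in the graft, and the other two were nearly equal.

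The spread available for these numbers is how far probe sets for the same gene disagree. In 586 genes with at least 2 probe sets at or above the median level, the root mean square gap between the differences of the top pair was 0.48. The difference of Gpx2 was 2.76 times that spread and that of Gpx1 1.68 times. This spread leaves out variation between animals and between amplifications.

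Gpx4 was nearly equal on both arrays. It read 8.92 (graft) and 8.89 (colon), a difference of 0.039. It is the only member with a second probe set, which read 8.64 and 8.62, a difference of 0.024. Both probe sets thus gave the membrane-guarding peroxidase a difference well under the spread of 0.48. Whether the sequences of these probe sets overlap was not tested. Mouse Gpx4 also has processed pseudogenes whose transcripts could share probes, so each value is uncertain as that of a single locus.

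Gpx3 differed by 0.039 too, reading 5.56 (graft) and 5.52 (colon). These values lie close to the median of all gene values, 5.48, and no detection call comes with them, so a plasma-type peroxidase in either epithelium cannot be separated from background. The same limit holds for every gene named below with a value under 5.48 on either array: the size of its difference is not determined. A difference no larger than that of Gpx3 was seen for 1050 of 9392 genes, 11.2%.

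Selenbp1 was 20.5-fold lower in the graft. It read 6.23 on the graft array and 10.58 on the colon array, a difference of -4.36, and this is the value it was added for. Among the 9392 genes whose higher value reached the median, its difference ranked 11 from the lowest. The graft value stayed above the median of all gene values and above the graft array's 20th percentile of 4.75, so the fold does not rest on a value at the floor. Selenbp2 read 5.65 (graft) and 8.77 (colon), 8.70-fold lower, a difference of -3.12. Its graft value lies close to the median of all gene values, so the size of this difference is uncertain. Both relatives were low in the graft and high in the colon. Because the 2 genes are close relatives, transcripts of one could bind the probes of the other, which was not tested. Neither value is thus certain as that of a single gene.

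**Figure D1:**
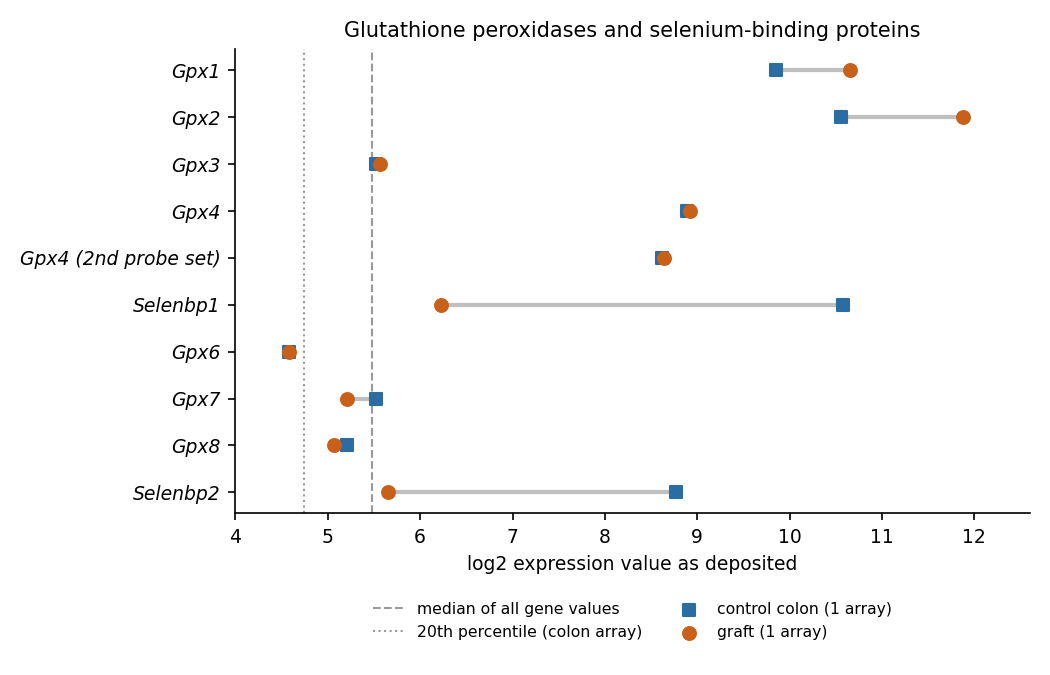
Log2 level of each probe set of the glutathione peroxidases and of Selenbp1 and Selenbp2 on the graft array (circles) and the colon array (squares), 1 array each and therefore without error bars; dashed and dotted lines mark the median of all gene values and the 20th percentile of the colon array. Selenbp1 goes from 10.58 in the colon to 6.23 in the graft and Gpx2 from 10.56 to 11.88, while both Gpx4 probe sets and Gpx3 have nearly coincident points.

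Against the background of the whole table, 3.55% of the 9392 genes were past 2-fold towards the graft and 5.68% towards the colon. Of the 5 members, 1 was past 2-fold upwards (Gpx2) and 1 downwards (Selenbp1), and the latter was chosen for it. A difference as high as that of Gpx2 was found for 2.27% of genes and one as high as that of Gpx1 for 5.13%. The median over the 5 members was 0.039, beside -0.047 over all genes at this level.

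**Figure D2:**
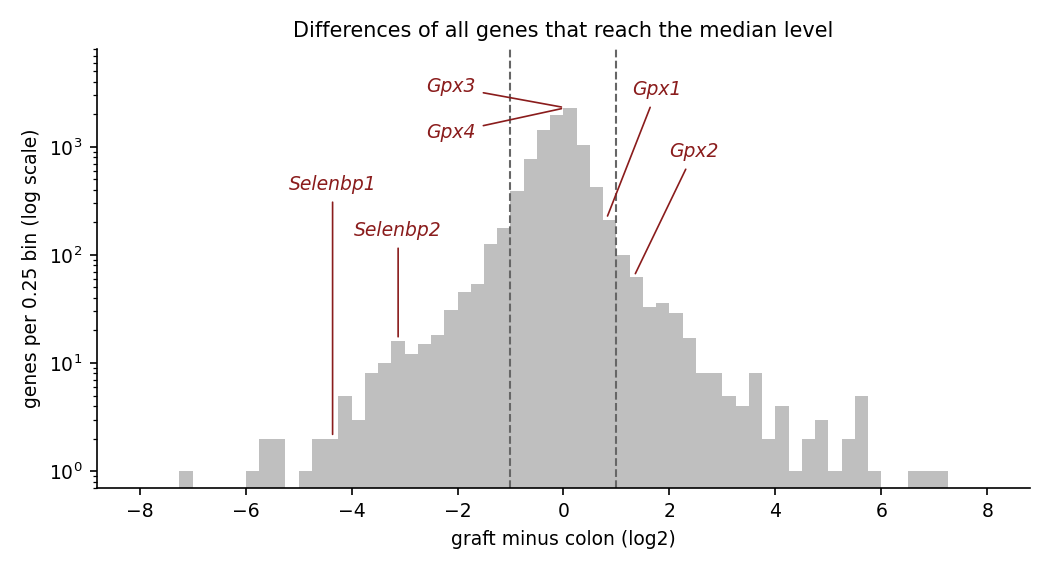
Histogram of graft minus colon differences (log2, bins of 0.25) for the 9392 genes that reached the median level, with a logarithmic count axis and dashed lines at 2-fold. Gpx3 and Gpx4 lie in the central peak, Gpx1 (0.80) just inside and Gpx2 (1.32) just outside the upper 2-fold line, and Selenbp2 (-3.12) and Selenbp1 (-4.36) in the sparse lower tail.

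The genes nearest to each member in the order of the difference were taken as those with the most similar contrast, over only 2 arrays. Next to Selenbp1 stood Sycn (-4.48) and the amino acid transporter gene Slc6a14 (-4.51) below it, and Ggh, the gamma-glutamyl hydrolase gene (-4.24), and the peroxisomal oxidase gene Hao2 (-4.22) above it. The graft values of Slc6a14, Ggh and Hao2 lay under 5.48, so their order beside Selenbp1 is not determined. The gaps were 0.11 to 0.16. Next to Gpx2 were Snx7, Dock6, Cgref1 and Prkg2, all within 0.0064 of its difference, and next to Gpx1 were Gbp8, Gemin6, Thap12 and Ltb4r1, within 0.0019. Around Gpx3 and Gpx4 the order is too dense to single out a gene. For both, Vti1b and 9430015G10Rik were among the 4 nearest. Rps12 and Rmc1 were the other nearest genes of Gpx3, and Tafa3 and Fam110a those of Gpx4.

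The rest of the family stayed near the lower end of the scale. Gpx7, an endoplasmic reticulum enzyme that uses cysteine in place of selenocysteine, read 5.21 (graft) and 5.53 (colon), a difference of -0.32. Gpx8, its membrane-bound relative, read 5.06 and 5.21 (-0.15). Gpx6, an olfactory enzyme, had exactly the same value on both arrays, 4.58, which lay below the 20th percentile of each array. Such exact ties made up 12.1% of all probe sets. Only Gpx7 of these 3 reached the median level on an array. Gpx5 was not analysed here.

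The surrounding pathways were described with 10 lists holding 118 different genes, of which 111 were measured and 93 reached the median level. Past 2-fold were 10 of these 93 towards the graft (10.8%) and 12 towards the colon (12.9%). Over all 9392 genes at this level the shares were 3.55% and 5.68%. The lists were chosen with earlier results of these data known, so their higher shares are no result about the pathways. In every list, of markers too, only genes that reached the median level were counted as past 2-fold. The median over all 111 was 0.014.

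Glutathione is built by Gclc, Gclm and Gss and regenerated by Gsr. Glutathione synthesis and recycling had 14 measured genes with a median of 0.053, and 13 reached the median level. Of these, 0 were past 2-fold towards the colon and 1 towards the graft (7.69%), beside 3.55% of all genes. That gene was glutathione reductase, Gsr, reading 9.47 (graft) and 7.96 (colon), 2.85-fold higher. The synthesis genes did not differ by 2-fold: Gclc had a difference of -0.20, Gclm of -0.02 and Gss of 0.25. The glutaredoxin gene Glrx had a difference of -0.17.

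Among genes of NADPH supply, 3 of 8 with a value were past 2-fold towards the graft and 0 towards the colon, around a median of 0.48. Over all genes the share past 2-fold towards the graft was 3.55%. G6pdx of the same list was not analysed here. Malic enzyme, Me1, read 8.56 (graft) and 4.70 (colon), a difference of 3.86. Its second probe set read 8.31 and 4.65, a difference of 3.66. Both colon values lie below that array's 20th percentile of 4.74, so no fold is given, whereas the direction was shared by both probe sets. In the pentose phosphate pathway, transketolase, Tkt, was 2.52-fold higher, at 8.61 against 7.28, and 6-phosphogluconate dehydrogenase, Pgd, 2.09-fold higher, at 8.66 against 7.60. Pgls (0.59) and Taldo1 (0.37) of the same pathway had smaller differences. The NADP-dependent isocitrate dehydrogenases Idh1 and Idh2 had differences of -0.38 and -0.47.

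Other enzymes that remove superoxide and peroxide went both ways within 2-fold. Of 8 measured superoxide dismutases, catalase and peroxiredoxins, 0 differed by 2-fold in either direction, and the median was 0.10. Prdx1, a cytosolic peroxiredoxin, read 10.88 (graft) and 10.31 (colon), a difference of 0.57, and its second probe set had a difference of 0.58. Sod1, the cytosolic superoxide dismutase, had a difference of 0.17 and catalase, Cat, one of -0.54. In the thioredoxin system, 7 of 10 genes reached the median level, and 1 of these was past 2-fold towards the colon (14.3%, beside 5.68% of all genes). It was Txnip, the inhibitor that binds thioredoxin, with 9.15 (graft) and 10.36 (colon), 2.32-fold lower. Thioredoxin itself, Txn1, had a difference of 0.39 and the thioredoxin-like Txndc17 of 0.03.

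Because the peroxidases need selenium, the other selenoproteins and the machinery that inserts selenocysteine were listed. Of 20 other selenoprotein genes, 0 were past 2-fold towards the graft and 2 towards the colon. Their median was -0.011, and only 14 reached the median level of all genes. The 2 were 14.3% of these 14, beside 5.68% of all genes. Selenop, the secreted carrier that delivers selenium, read 8.81 (graft) and 10.95 (colon), 4.40-fold lower. Dio1, the deiodinase that activates thyroid hormone, read 5.26 and 8.46 and was past 2-fold lower, with no fold given because the graft value lies under 5.48. The small muscle-type selenoprotein gene Selenow, at 8.95 and 8.89, had a difference of 0.06. Of the 12 insertion and supply genes, 0 were past 2-fold either way, around a median of 0.12. The largest differences were those of the SECIS-binding relative Secisbp2l (0.96) and of Sephs2 (0.85), which makes the selenium donor and is itself a selenoprotein. Fibroblast and smooth muscle genes were read beside Selenop. Of 10 such genes 9 had a negative difference, around a median of -0.33, beside -0.047 over all genes at the median level. Of the 9 that reached that level 1 was past 2-fold lower (Lum, -1.76), beside 5.68% of all genes. Mean levels of the 10 were 5.91 (graft) and 6.33 (colon). The part of these cells in the value of Selenop was not tested.

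**Figure D3:**
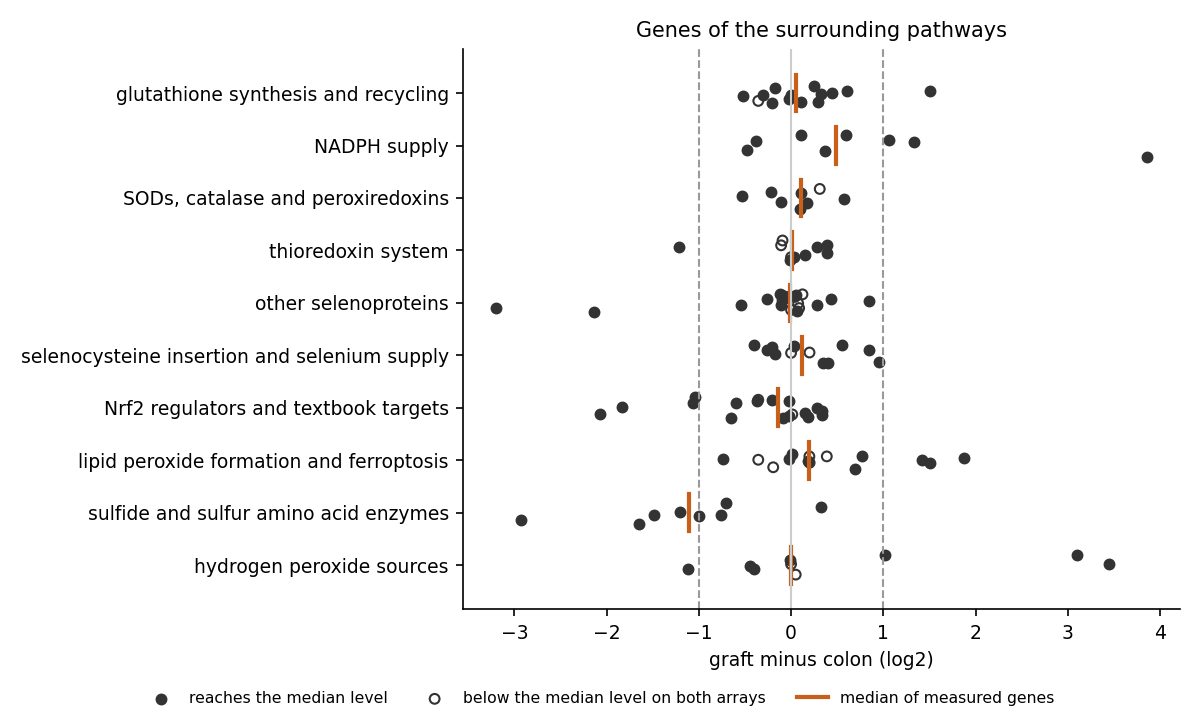
Difference between graft and colon (log2) of each measured gene in 10 lists around the glutathione peroxidases, with filled points for genes that reached the median level, open points for those below it on both arrays, orange bars for list medians and dashed lines at 2-fold. Sulfide and sulfur amino acid genes lie mostly left of 0 (median -1.10), NADPH supply has a median of 0.48 with Me1 at 3.86, and most selenoprotein genes lie near 0 apart from Dio1 and Selenop.

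Gpx2 is a textbook target of Nrf2, the factor that answers oxidants. Of 18 measured Nrf2 regulators and targets, 16 reached the median level. Past 2-fold were 0 of these towards the graft and 4 towards the colon (25%), beside 5.68% of all genes. The median over the 18 was -0.14. The lower genes were the glutathione transferases Gstm1 (8.97 in the colon, 6.90 in the graft, 4.22-fold) and Gsta3 (6.38 and 5.34), the carbonyl reductase Cbr3 (3.58-fold) and the epoxide hydrolase Ephx1 (6.10 and 5.04). The graft values of Gsta3 and Ephx1 lie under 5.48, so no fold is given for them. Nrf2 itself, Nfe2l2, had a difference of -0.37, Nqo1 of 0.33, Srxn1 of 0.15, Txnrd1 of 0.28 and the transporter gene Abcc3 of -0.65. Hmox1 stayed below the median level on both arrays, at 5.17 and 5.15. These 4 were named for being past 2-fold lower, so a sign opposite to that of Gpx2 is set by that choice. Of the 18 genes, 6 had a positive difference and 12 a negative one. Over the 9392 genes at the median level the median was itself negative, -0.047, so these signs are no result about Nrf2. The list also mixes regulators with targets, so its counts and median give it no direction.

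Gpx4 acts on lipid peroxides, and 14 genes linked to their formation or to ferroptosis were listed. Of the 9 that reached the median level, 3 were past 2-fold towards the graft, beside 3.55% of all genes, and 0 towards the colon. The list does not separate genes that favour ferroptosis from genes that limit it, so its count and median give it no direction. Alox5, the arachidonate lipoxygenase of myeloid and tuft cells, read 6.70 (graft) and 4.82 (colon) and was past 2-fold higher, with no fold given because the colon value lies close to that array's 20th percentile of 4.74. The phospholipid acyltransferase Lpcat3 read 9.46 and 7.96, 2.83-fold higher, and the tetrahydrobiopterin enzyme Gch1 7.37 and 5.95, 2.68-fold higher. The iron storage genes Fth1 and Ftl1 had differences of 0.19 and -0.74. The list median was 0.20 over all 14 genes and 0.69 over the 9 that reached the median level. Of 8 leukocyte genes, listed beside Alox5, only 3 reached the median level, and 0 of these were past 2-fold. Mean levels of the 8 leukocyte genes were 5.45 (graft) and 5.26 (colon), with Ptprc at 6.09 against 5.30. Their part in the value of Alox5 was not tested.

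Selenbp1 was read beside enzymes of hydrogen sulfide and sulfur amino acids. The 2 methanethiol genes fixed for that list, Tmt1a and Tmt1b, were not analysed here. Past 2-fold were 4 of 8 genes with a value towards the colon and 0 towards the graft, and 7 had a negative difference, around a median of -1.10. The rhodanese Tst, a sulfurtransferase, read 6.48 (graft) and 9.41 (colon), 7.59-fold lower. Sqor, the mitochondrial enzyme that oxidises sulfide first, read 7.71 and 9.36, 3.14-fold lower. The sulfurtransferase Mpst read 5.70 and 7.19, 2.80-fold lower, a size that is uncertain because the graft value lies close to the median of all gene values. The persulfide dioxygenase Ethe1 read 8.49 and 9.70, 2.31-fold lower. These 4 were named for being past 2-fold and Selenbp1 was chosen for its low graft value, so their shared direction is set by those choices. The cystathionine beta-synthase gene Cbs, at 5.18 and 6.18, was just short of 2-fold lower. Cdo1 had a difference of -0.76 and Cth one of -0.70. Sulfite oxidase, Suox, was the only gene of the list with a positive difference, 0.33. Over all genes the share past 2-fold towards the colon was 5.68%. Colonic epithelial markers moved with it: 6 of 6 were past 2-fold towards the colon, and their mean level was 6.14 against 9.92. The part of that shift in Selenbp1 and in the sulfide genes was not tested.

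**Figure D4:**
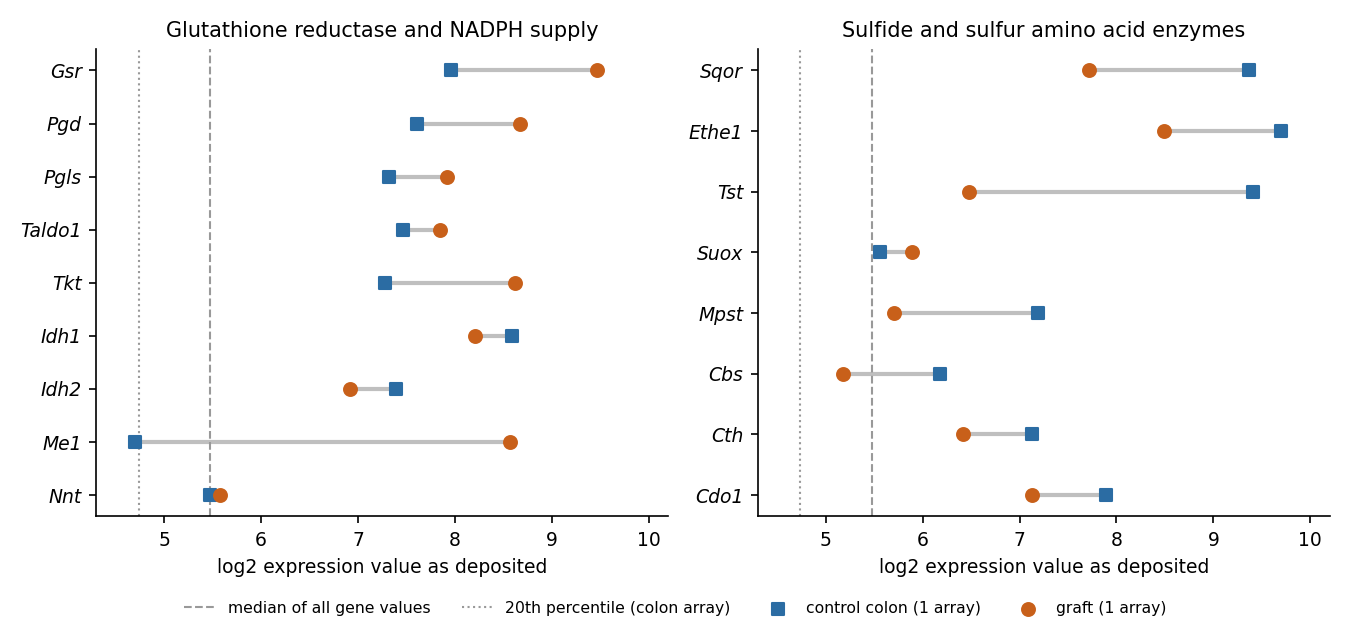
Log2 levels on the graft array (circles) and the colon array (squares), 1 array each. Glutathione reductase is shown with the genes of the NADPH supply list (left), and the sulfide and sulfur amino acid enzymes are on the right. Dashed and dotted lines mark the median of all gene values and the 20th percentile of the colon array. Gsr, Pgd, Tkt and Me1 lie 2-fold or more higher in the graft, and Sqor, Ethe1, Tst and Mpst 2-fold or more lower.

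Genes for enzymes that produce the substrate of the peroxidases went both ways. Of 9 hydrogen peroxide sources with a value, 7 reached the median level. Of these, 3 were past 2-fold towards the graft and 1 towards the colon, beside 3.55% and 5.68% of all genes. The median over the 9 was 0. Duoxa2 and Duox2, the maturation factor and the enzyme of the epithelial peroxide source, had differences of 3.45 and 3.10, and Xdh, xanthine dehydrogenase, was 2.03-fold higher at 7.31 against 6.29. Nox1, the colonic NADPH oxidase, read 4.99 (graft) and 6.11 (colon) and was past 2-fold lower, again with an undetermined size, and its organiser and activator genes Noxo1 and Noxa1 had differences of -0.40 and -0.44.

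Markers of other epithelial cells and of blood were read on the same arrays. Of 8 genes of crypt stem and cycling cells, 1 was 2-fold higher (Olfm4) and 1 was 2-fold lower (Lgr5), with a median of 0.19, whereas Mki67 had a difference of 0.23. Of 6 Paneth cell genes 5 were past 2-fold towards the graft, with mean levels of 9.48 (graft) and 4.89 (colon), and 5 goblet cell genes had 0 past 2-fold. The part of these shifts in Gpx2 and Gpx1 was not tested. Red blood cells, which are rich in Gpx1, were represented only by Alas2, at 4.89 and 4.79, below the median level on both arrays.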

How the data were processed

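Total RNA of 1 graft and 1 control colon sample, 4.33 ng each per the labels' protocols, was amplified, labelled with biotin and hybridised to 1 single-channel array per sample. The authors deposited a table of log2 values, 1 row for each of 24074 probe sets and 1 column for each array. The log2 scale was read from the deposited values (4.19 to 13.46). The sources used here name no software, background correction, normalization or centring. Column medians were 5.44 (graft) and 5.43 (colon), and the columns correlated with r = 0.94, which values centred per gene over 2 arrays would not.

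The platform's annotation gave 18904 probe sets a single symbol, 1330 several and 3840 none, and only the first were used. Per gene, the probe set with the highest mean was kept. A gene was counted if its higher value reached the median of all gene values, 5.48. Differences are graft minus colon, called at 2-fold, computed with pandas 2.3.3 and numpy 2.4.6 and without a test. The counting was tested on simulated data. Promoter windows and motif shares came from RefSeq (GRCm38.p6), aligned with Biopython 1.88, and motifs were chosen with the windows in view.

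The members and lists were chosen with earlier results of these data known. Named genes are the members, the rest of their family, up to 6 genes per list past 2-fold, the 2 brightest of each list and the 4 nearest in the order of the difference, and any further gene was picked with its values known. The number of arrays limits the precision. Alternatives were the mean of probe sets, quantile normalization, centring, a floor at the 20th percentile, other filters and a 4-fold threshold.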

Additional observations from a re-analysis of the deposited data

How the results depend on the processing

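The mean of probe sets, quantile normalization, centring and the floor were run for the 5 members, both counts of genes past 2-fold and the 10 list medians. The 4-fold threshold and the absence of a filter were run for the counts alone, and the filter on members for the list medians alone. The members' differences ranged from 0.80 to 0.87 for Gpx1, 1.32 to 1.42 for Gpx2, 0.033 to 0.042 for Gpx3, 0.031 to 0.086 for Gpx4 and -4.36 to -4.27 for Selenbp1, all within the probe set spread of 0.48. That spread, of single genes, is no yardstick for list medians near 0. With the threshold at 4-fold, the counts were by construction smaller, 103 towards the graft and 129 towards the colon. The median of lipid peroxide and ferroptosis genes moved to 0.69 over members that reach the median level, because fewer genes enter. The median of the thioredoxin system, 0.015, ranged up to 0.15, and that of the other selenoproteins, -0.011, from -0.086 to 0.0026. The median of sulfide genes ranged from -1.11 to -1.09 and that of NADPH supply from 0.48 to 0.55. No paired analysis was possible because each group has 1 array. For the same reason no sample could be left out. A value near the lower end of an array cannot be separated from background, which limits Gpx3, Gpx6, Gpx7 and Gpx8. It also limits the colon values of Me1, Alox5 and Olfm4 and the graft values of Dio1, Nox1, Ephx1, Gsta3, Cbs, Lum and Lgr5. The graft values of Selenbp2 and Mpst lie little above the median of all gene values.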
